A study of Rattus norvegicus with 5 samples.

Results

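The proliferative zone (PZ) of the mandibular condylar cartilage (MCC) was compared with the femoral condylar cartilage (FCC) across the whole expression array, by taking the deposited log2 value of each probe set in PZ minus that in FCC. All probe sets other than the array's own controls entered, 31042 of the 31099 deposited, and 2 of the 5 arrays of the series were compared. The other 3 arrays of the series hold the fibrous zone (FZ), the zone of mature chondrocytes (MZ) and the hypertrophic zone (HZ) of the same jaw cartilage, with 1 array for each. All 5 groups came from wild type male Sprague-Dawley rats of 5 weeks, with no treatment and no altered allele. Cells were cut by laser capture from 7 µm sections, PZ as 1 zone of the jaw joint cartilage and FCC as the middle and deep chondrocytes of the knee, and by the labels 30 sections were pooled for PZ and as many for FCC. The RNA was amplified in 2 linear cycles before hybridization. Since each group is a single pooled array, the differences below stand without replicates, tests or p-values, and the difference between these 2 arrays cannot be told apart from the difference between the tissues. For a pooled sample, fewer cells of a kind and less RNA per cell also cannot be told apart.

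The PZ is the progenitor layer of a secondary cartilage. It lies beneath the fibrous surface of the mandibular condyle, its cells divide and then enter the chondrocyte lineage, and the tissue descends from the cranial neural crest, whose derivatives in the jaw form without Hox gene expression. The FCC is a hyaline articular cartilage of the hind limb, formed from lateral plate mesoderm. Its middle and deep chondrocytes maintain a matrix of type II collagen and aggrecan in a tissue without vessels.

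Each deposited value is relative to the median of its probe set over the 5 arrays, so that 1 array usually stands at 0.00. No value tells how strongly a gene was expressed or whether it lay above background. All arrays but FCC hold jaw zones, so for a gene that separates the tissues the median lies among the jaw values. Which array lies away from the median therefore does not tell which tissue departed. Differences are given on the log2 scale, where 1 is 2-fold and 2 is 4-fold, and a positive difference means higher in PZ. For genes of the lists the probe sets were averaged unless a range is printed. Over the 31042 probe sets the median difference was 0.04, with quartiles at −0.23 and 0.32, and over the 14217 genes with a symbol it was 0.01. The 18 hybridization controls, bacterial and phage transcripts added to the sample, averaged 0.44 in PZ and 0.50 in FCC. The values of FCC spread the most over the probe sets, with an SD of 0.59, followed by PZ with 0.46, against 0.27 to 0.37 in the other arrays. Where a gene had more than 1 probe set, as 4525 genes did, their SD was 0.36 at the median and 0.98 at the 90th percentile, which is the only spread that these data offer for a difference. The control probe sets for the ends of 2 housekeeping transcripts departed from each other in FCC for beta-actin and in PZ for GAPDH. For beta-actin the 5′ value lay above the 3′ value by 1.24 in FCC and 0.14 in PZ, and for GAPDH by 1.36 in PZ and −0.21 in FCC. As each value is relative to the median of its own probe set, these gaps compare arrays and are no signal ratio of the 2 ends. How far this moved other genes was not tested.

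Probe sets at least 2 lower in PZ were more numerous than those at least 2 higher. There were 502 of the first kind, 1.62% of all, and 251 of the second, 0.809%. The imbalance grew with size, since at 3 or more 172 were lower and 35 higher, at 5 or more 37 and 2, and at 6 or more 11 and 0. In most of the lower probe sets it was FCC that lay away from the median, which is mostly that of jaw zones. In 350 of the 502 the FCC value lay at least 1 above the median of the 5 arrays while PZ lay within 1 of it, in 101 PZ was low with FCC within 1, and in 50 both applied. Among the 251 higher probe sets FCC alone was low in 139, PZ alone was high in 73, and both applied in 39. The 251 carry 165 named genes and the 502 carry 345, while 76 and 128 probe sets have no name in the annotation used here.

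**Figure D1:**
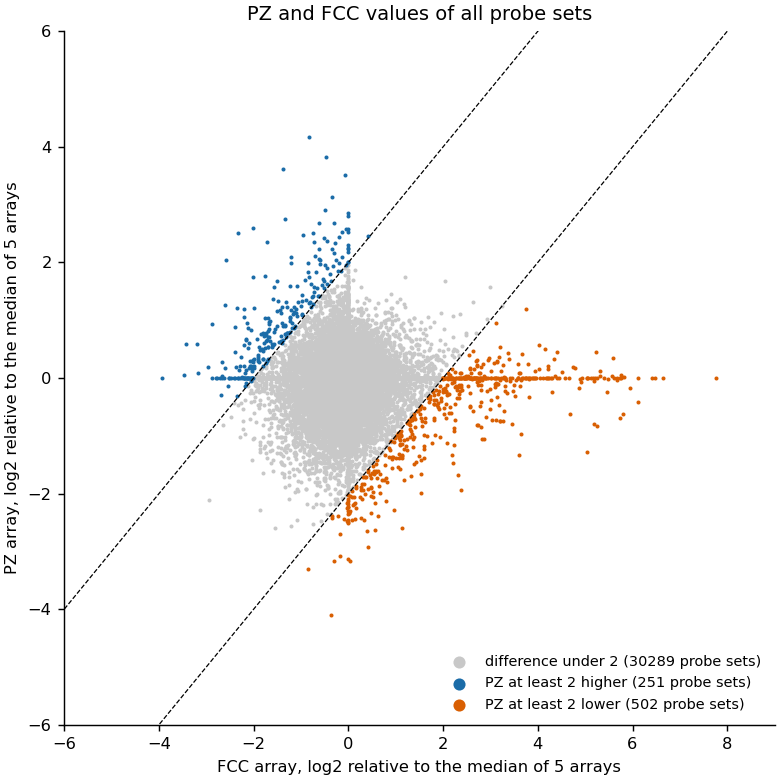
Log2 values of 31042 probe sets, relative to the median of the 5 arrays, on the FCC array (horizontal axis) and the PZ array (vertical axis), with dashed lines at a difference of 2. The 502 probe sets at least 2 lower in PZ run out along the FCC axis to 7.77, and the 251 higher ones stay within 5.01 of equality.

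Several probe sets of a gene often disagreed. Of 98 genes with at least 2 probe sets and at least 1 of them 2 or more higher in PZ, all probe sets were at least 1 higher in 21, and in 33 a probe set lay on the other side of 0. Of 120 such genes on the lower side the numbers were 24 and 46. Col2a1, the main collagen of hyaline cartilage, is one of the genes whose probe sets part. Its 3 probe sets differed by 2.12, −1.55 and −0.85, with PZ at 0.00 in each and FCC at −2.12, 1.55 and 0.85, so that no direction can be given for it.

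The largest differences were those of genes high in FCC. Hoxa9, a homeobox transcription factor of the trunk and limbs, was at 7.77 in FCC and 0.00 in PZ, a difference of −7.77, while FZ, MZ and HZ gave −0.63, −0.65 and 0.43. Meltf, a membrane protein that binds iron, was at 6.47 in FCC and between −0.75 and 0.00 in the 4 MCC zones. Mia, a small protein secreted by chondrocytes, was at 6.40 in FCC and 0.00 in PZ, and its highest value in the jaw was 1.24 in MZ. In each of these 3 genes FCC stood clear of every jaw zone, and PZ was not the lowest of the zones. The 25 genes furthest lower in PZ were ranked by the probe set with the largest difference, among probe sets with 1 symbol. Hoxc10 and Matn3, which the paper lists as far lower than FCC, have no probe set under these names here. All 25 had an FCC value at least 1 above the median. In 2 of them the PZ value was at least 1 below it, namely Vit (−1.28) and Fap (−1.33). Their differences ran from −4.92 to −7.77.

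Among the 25 lower genes, several encode proteins of the cartilage matrix or other secreted proteins. Smoc1, a matricellular protein that binds calcium, differed by −6.51 and by −1.71 in its other probe set. Chad, a leucine-rich matrix protein to which chondrocytes attach, differed by −6.42, with 5.79 in FCC and −0.63 in PZ. Vit, a cartilage matrix protein of the von Willebrand A domain family, differed by −6.33 and was as low in FZ (−1.31) as in PZ (−1.28). Abi3bp, a matrix protein of connective tissue, was at 5.20 in FCC, 1.70 in FZ and −0.05 in PZ. Sod3, the extracellular superoxide dismutase, had the same order, at 4.93, 1.46 and 0.00. These last 2 genes were thus raised in the fibrous surface of the jaw cartilage as well as in FCC, and PZ lay at the level of the deeper zones. Snorc, a chondrocyte proteoglycan, and Cnmd, an inhibitor of angiogenesis in cartilage, were higher in MZ (1.81 and 2.08) than in PZ (0.00 and −0.25), with FCC at 5.13 and 5.46.

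Others of the 25 encode a growth factor, enzymes, membrane or intracellular proteins, transcription factors and a noncoding RNA. Gdf10, a growth factor of the BMP family, was at 5.94 in FCC and −0.17 in PZ. Ptgds, the lipocalin-type prostaglandin D synthase, was at 5.67 in FCC and between −0.04 and 0.05 in the 4 jaw zones. Fbp2, the muscle form of the gluconeogenic enzyme fructose bisphosphatase, was at 5.48 in FCC and between −0.01 and 0.01 in the 4 zones. The values of the 4 zones thus lay close together for these 2 genes. They leave unknown whether the transcript was detected in PZ or another zone at all, and so whether the zones differed. Tesc, a calcium-binding protein, and Tpd52l1, a coiled-coil protein of the tumour protein D52 family, differed by −6.07 and −5.98, and both were lower in FZ and PZ than in MZ. Fap, a membrane serine protease of activated fibroblasts, was at 3.60 in FCC and −1.33 in PZ. Meg3, a maternally expressed noncoding RNA, was at 6.12 in FCC and 0.00 in PZ by 1 probe set, and its differences were −6.12 and −5.16 by its 2 probe sets. Creb5, a transcription factor of the articular surface, differed by between −5.03 and −2.08 in all 5 of its probe sets.

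For 4 of the 25 genes a second probe set lay within 1 of 0. Agtr2, an angiotensin receptor, differed by −5.53 by 1 probe set and 0.21 by the other. Cdh22, a cadherin, gave −5.06 and 0.60. Plppr4, a neuronal membrane protein, gave −5.28 and −0.09, and Acsl6, an acyl-CoA synthetase, −5.03 and −0.04. The place of these genes among the 25 thus rests on 1 probe set each.

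On the other side, the 25 genes furthest higher in PZ, ranked in the same way, differed by 3.15 to 5.01. Miat, a long noncoding RNA, was at 3.62 in PZ and 3.70 in FZ, against −1.39 in FCC, with 0.00 and −1.74 in the deep zones MZ and HZ, a difference of 5.01. Crabp1, which binds retinoic acid in the cytoplasm, was at 2.51 in PZ, 4.89 in FZ and −2.32 in FCC. Pcdh20, a protocadherin, was at 2.60, 2.25 and −2.01 in the same arrays, and its 2 probe sets differed by 3.30 and 4.61. For these 3 genes the high level belonged to both superficial zones of the jaw cartilage, and FCC lay near HZ for Miat and Crabp1 and below every zone for Pcdh20. Among the 25 genes, PZ was at least 1 above the median in 18, FZ in 12 and neither MZ nor HZ in any, and FCC was at least 1 below it in 18.

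Genes with PZ itself high included several of matrix assembly. P4ha3, a catalytic subunit of collagen prolyl hydroxylase, was at 3.51 in PZ, 3.34 in FZ and −0.08 in FCC. Aspn, a small proteoglycan that binds collagen and TGF-beta, was at 2.91, 3.20 and −0.49, and its probe sets differed by 2.84 and 3.40. Mia3, which carries procollagen out of the endoplasmic reticulum, was at 1.74 in PZ, 0.00 in FZ and −2.01 in FCC, but by its other probe set the difference was 0.38. Lrrc17, a leucine-rich secreted protein, was at 1.76 in PZ, 2.19 in FZ and −1.76 in FCC. Among membrane proteins, Plxdc1, a plexin domain protein, was at 3.13 in PZ, 3.51 in FZ and −0.35 in FCC by 1 probe set. Its 2 probe sets differed by 2.65 and 3.47. Cdh13, a cadherin anchored by a lipid, differed by between 1.395 and 3.26 in its 3 probe sets, with FZ above PZ in each.

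Prmt8, an arginine methyltransferase, was at 2.68 in PZ and −0.62 in FCC, with FZ, MZ and HZ at 0.00, 0.70 and −0.75, so that PZ stood above each of the other arrays by more than 1. Tppp, which promotes tubulin polymerization, was at 1.99 in PZ, 0.79 in FZ and −1.22 in FCC. Another kind had PZ near 0 and FCC low. Styxl2, a protein of the dual-specificity phosphatase family, was at 0.00 in PZ and −3.93 in FCC. Zswim6, a zinc finger protein, was at 0.59 and −3.42, and Robo2, a receptor for Slit ligands, at 0.59 and −3.21 by 1 of 3 probe sets, with the lowest of the 3 differing by 1.004. Lox, which cross-links collagen, was at 0.20 in PZ and −2.97 in FCC by 1 probe set, and its other probe set differed by 1.16. Drd4, a dopamine receptor, differed by 4.63 by 1 of 3 probe sets and by 0.00 by another. Of the 16 genes among the 25 that have at least 2 probe sets, all probe sets were at least 1 higher in 8.

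**Figure D2:**
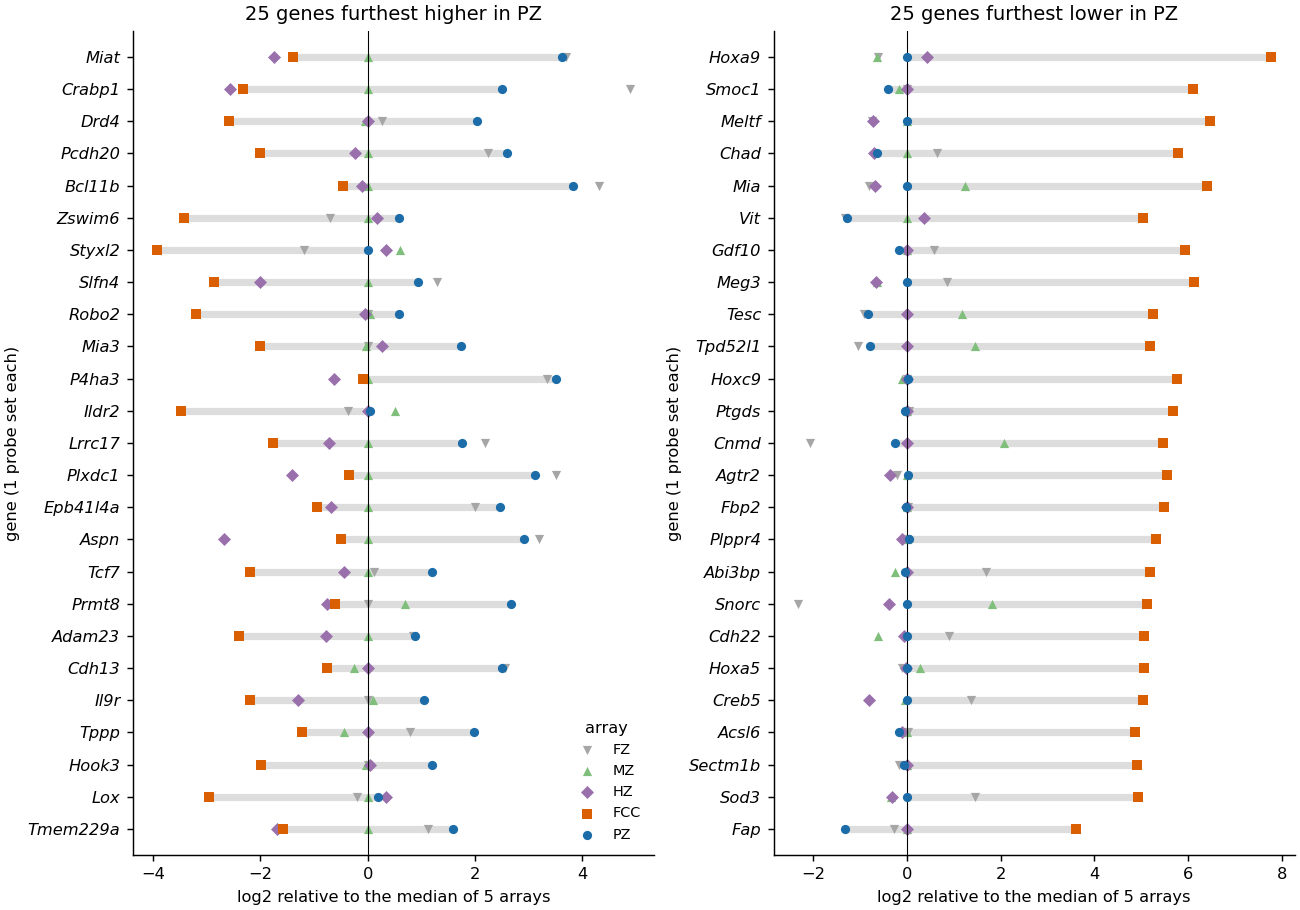
Log2 values on the 5 arrays, relative to their median (horizontal axis), by 1 probe set for each gene among those with 1 symbol. Shown are the 25 genes furthest higher (left) and the 25 furthest lower in PZ than in FCC (right). A grey bar joins the FCC square and the PZ circle. On the right FCC stands alone, from 3.60 to 7.77, and on the left PZ is at least 1 above the median in 18 genes and FZ in 12.

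The genes of 51 lists of pathways and cell types were then described by how many members were at least 1 higher or lower. Over all 14217 genes, 661 were at least 1 higher in PZ, which is 4.65%, and 1065 were at least 1 lower, which is 7.49%, with a median of 0.01. These shares are the background against which each count can be read. The lists were drawn up with earlier results of these data known, so a count can partly follow from the choice of members.

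**Figure D3:**
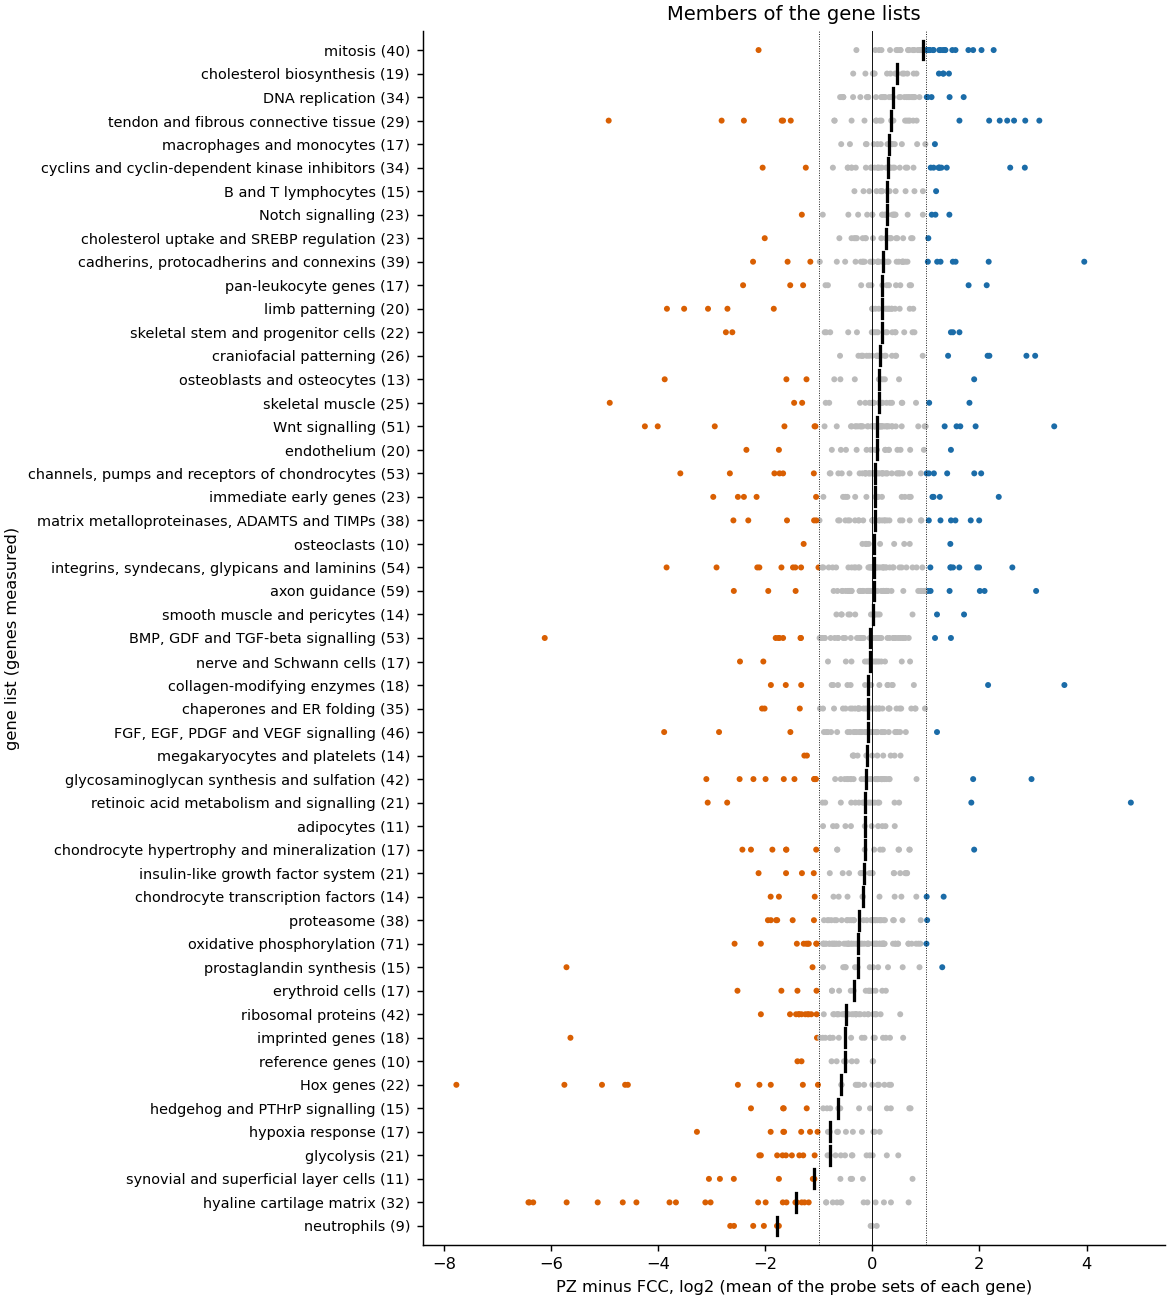
Log2 difference of PZ minus FCC (horizontal axis) for each measured gene of 51 lists, ordered by the median of the list (black bar), with members at least 1 higher in blue and at least 1 lower in orange. The medians run from −1.78 for the neutrophil genes and −1.42 for hyaline cartilage matrix to 0.94 for mitosis.

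The listed hyaline cartilage matrix genes were mostly lower in PZ. Of 32 measured, 20 were at least 1 lower, 12 of them at least 2 lower, and 0 were at least 1 higher, with a median of −1.42. Several members, such as Chad, Mia and Vit, are listed by the paper as strongly lower than FCC on these same arrays. The count and the median therefore partly follow from the choice of members. In 19 of the 20 FCC lay at least 1 above the median of the arrays. Clec3a, a cartilage lectin, was at 3.02 in FCC, with PZ at 0.00 and MZ at 0.26, and was far lower in FZ (−5.90) and HZ (−3.19). Hapln1, which ties aggrecan to hyaluronan, was at 2.51 in FCC, 1.08 in PZ and −2.35 in HZ, and its 3 probe sets differed by between −1.58 and −1.32. Comp, which binds and organizes collagen fibrils, was at 1.60 in FCC, −2.33 in FZ and 0.00 in PZ. The PZ value of these genes was thus intermediate, under FCC and well above the fibrous zone for Clec3a and Comp.

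The size of the difference varied widely within the list. Scrg1, a small secreted protein of differentiating chondrocytes, differed by −4.66, Cytl1, a secreted factor of chondrocytes, by −4.41 and Chadl, a relative of Chad, by −3.79. Prelp, which links matrix to basement membranes, differed by −3.67 and Cilp2 by −3.12, and both were higher in FZ (1.54 and 1.64) than in PZ (0.00 and 0.00). Col9a1 and Col9a2, chains of the type IX collagen that coats the fibrils of type II, differed by −2.13 and −1.41, and Matn1, a matrilin, by −1.27. Acan, the aggrecan core protein, differed by −0.86 and Papss2, which makes the sulfate donor of proteoglycans, by 0.22.

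The transcription factors of chondrocytes went both ways. Of 14 measured, 2 were at least 1 higher and 3 lower, with a median of −0.18. Runx1, a factor of early chondrocytes, was at 0.62 in PZ and −0.71 in FCC, a difference of 1.33 with 1.24 and 1.43 by its 2 probe sets. Sox6, a partner of Sox9 in the activation of cartilage genes, was at 0.96 in PZ, above the other 4 arrays, and −0.06 in FCC. Hif1a, the oxygen-regulated factor that chondrocytes need to survive, was at −0.47 in PZ and 1.43 in FCC. Erg, an Ets factor of articular cartilage, differed by −3.22 and −0.27 in its 2 probe sets. Sox9, Sox5 and Runx2 are not analysed here.

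Among 17 genes of hypertrophy and mineralization, 6 were at least 1 lower and 1 higher, with a median of −0.14. Col10a1, the collagen of hypertrophic chondrocytes, was at 0.00 in FCC and −1.61 in PZ, between the FZ value of −2.73 and those of MZ (0.62) and HZ (0.37). Ihh, the hedgehog ligand of prehypertrophic chondrocytes, was at 1.81 in FCC, −0.45 in PZ and 1.23 in MZ. Spp1, the phosphoprotein osteopontin, was at −0.57 in FCC and −2.17 in PZ, the lowest of the 5 arrays. Enpp1, which makes pyrophosphate, and Ankh, which exports it, differed by −1.87 and −2.43, the latter by −2.47 and −2.38 in its 2 probe sets. These inhibitors of mineralization were high in FCC (0.80 and 1.07) and lowest in PZ (−1.06 and −1.35). Phex, a peptidase of mineralizing cells, was the higher gene, at 0.00 in PZ and −1.90 in FCC. Mmp13, the collagenase of hypertrophic cartilage, and Alpl, the alkaline phosphatase of mineralization, differed by 0.04 and 0.15.

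Genes of tendon and fibrous tissue split. Of 29 measured, 7 were at least 1 higher in PZ and 6 lower, with a median of 0.35. The higher genes were high in FZ as well. Tnmd, tenomodulin of the tendon cell surface, was at 2.86 in PZ, 5.29 in FZ and 0.00 in FCC. Postn, a matricellular protein of periosteum and ligament, was at 0.98 in PZ, 1.06 in FZ and −1.66 in FCC. Fndc1, Dpt, a protein of dermal matrix, Tppp3 and Scx, the transcription factor of tendon progenitors, differed by 2.52, 2.38, 2.18 and 1.63. In 5 of the 6 lower genes FCC lay at least 1 above the median of the arrays, and in 1, Fap, PZ lay at least 1 below it. Mfap4, of elastic microfibrils, was at 2.81 in FCC, 3.29 in FZ and 0.00 in PZ, and Col14a1, a collagen on the surface of fibrils, was at 1.69, 2.28 and 0.00. Fbn1, the fibrillin of microfibrils, was at 1.04 in FCC and −0.62 in PZ, and Thbs4 differed by −1.52. For Mfap4 and Col14a1 the fibrous zone and FCC were both above PZ. Col1a1, Col1a2 and Col3a1, the chains of types I and III collagen, differed by −0.71, 0.14 and 0.35.

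Enzymes that modify collagen did not move as a group, with 2 of 18 higher, P4ha3 and Lox, 3 lower and a median of −0.08. P4ha1, the hypoxia-regulated counterpart of P4ha3, was at 0.91 in FCC and −0.41 in PZ, a difference of −1.33. Plod1, a lysyl hydroxylase, differed by −1.62 and Loxl3, of the lysyl oxidase family, by −1.89. P4ha1 and P4ha3 thus lay on opposite sides, as did Lox and Loxl3. Other members of these families were less than 1 off, with P4ha2 at −0.02, Loxl1 at 0.38 and Loxl2 at 0.78.

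Synthesis of glycosaminoglycans had more genes lower than higher, with 10 of 42 at least 1 lower, 2 higher and a median of −0.11. Csgalnact1, which starts chondroitin sulfate chains, was at 3.17 in FCC and 0.07 in PZ, and its 2 probe sets differed by −3.59 and −2.61. Csgalnact2 differed by −1.45, Has2, a hyaluronan synthase, by −1.08 and Papss1 by −1.99. Sulf2, which removes sulfate from heparan sulfate, differed by −2.48. On the other side Hs3st6, a heparan sulfate sulfotransferase, was at 2.68 in PZ and −0.29 in FCC, and PZ was above all other arrays, FZ being next at 1.34. Cd44, the hyaluronan receptor, was at 0.21 in PZ and −1.68 in FCC.

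Among 38 matrix metalloproteinases, ADAMTS proteases and inhibitors, 6 were at least 1 higher, 5 lower and the median was 0.05. The 6 higher genes were all proteases, as most members of the list are. Of the 5 lower ones 2 were inhibitors, Timp4 and Reck, while Timp1, Timp2 and Timp3 differed by 0.14, 0.32 and −0.99. Adamts4 and Adamts5, the aggrecanases, differed by 1.996 and 1.27, and Mmp14, a membrane collagenase, by 0.54 and 2.56 in its 2 probe sets. Timp4, an inhibitor, was at 2.24 in FCC and −0.08 in PZ. Mmp3, the stromelysin of cartilage turnover, was at 2.37 in FCC and −0.23 in PZ.

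Of 54 integrins, syndecans, glypicans, laminins and related proteins, 8 were at least 1 higher and 9 lower, with a median of 0.03. Lama2, a laminin chain, was at 1.69 in PZ, 2.63 in FZ and −0.92 in FCC. Itgb6, an integrin subunit that activates TGF-beta, was at 1.31 in PZ and at most 0.10 in the other arrays. Itgbl1, an integrin-like secreted protein, was at 3.84 in FCC, 1.06 in FZ, 0.00 in PZ and −2.91 in MZ. Sparc, a collagen-binding matricellular protein, and Col4a2, of basement membrane collagen, were low in PZ itself, at −2.04 and −3.09, against 0.07 and −0.18 in FCC. PZ was also low for the 3′ probe set of the GAPDH control (−1.46), and the part of this in Sparc and Col4a2 was not tested. Cadherins, protocadherins and connexins had 7 of 39 higher, 3 lower and a median of 0.205, led by Pcdh20 and Cdh13. Cdh2 and Cdh11, cadherins of mesenchyme, differed by 0.66 and 0.56, the latter over a range of −0.36 to 1.60 in 3 probe sets.

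Mitotic genes were higher in PZ than in FCC. Of 40 measured, 38 lay above 0, 19 were at least 1 higher and 1 was at least 1 lower, with a median of 0.94. Bub1b, a kinase-like protein of the spindle checkpoint, was at 0.89 in PZ and −1.38 in FCC, and the remaining zones lay between −0.12 and 0.11. Bub1, its partner, was at 0.65 in PZ and −1.39 in FCC, and Ect2, which positions the cleavage furrow, was at 0.64 and −1.24. In these 3 genes PZ was the highest and FCC the lowest of the 5 arrays. For most of the others PZ was not the highest. Mki67, the proliferation antigen, was at −1.15 in FCC, 0.00 in FZ, PZ and MZ and 0.51 in HZ. Ccnb1, the cyclin of mitotic entry, was at −1.401 in FCC and between −0.15 and 0.15 in the 4 zones.

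Relative to the median of the arrays, which is mostly that of jaw zones, it was FCC rather than PZ that lay away. Of the 19 higher genes, FCC lay at least 1 below the median of the arrays in 16 and PZ lay at least 1 above it in 0. Over the list the median value was −1.04 in FCC and −0.045 in PZ, whereas FZ, MZ and HZ had 0.21, 0.00 and 0.07. On these arrays the zone named for proliferation did not stand above its neighbours in mitotic transcripts as a group. Dlgap5, a spindle protein, was the exception in direction, at 2.12 in FCC and 0.00 in PZ.

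DNA replication genes shifted less, with 5 of 34 at least 1 higher, 0 lower and a median of 0.38. Cdt1, which licenses replication origins, was at 0.00 in PZ and −1.71 in FCC, and Tyms and Tk1, which supply thymidine nucleotides, differed by 1.03 and 1.02. Pcna, the sliding clamp of the polymerases, was at −1.03 in PZ and −0.67 in FCC, a difference of −0.36, and Mcm2, of the replicative helicase, differed by 0.74. Of 34 cyclins, kinase inhibitors and cell cycle factors, 9 were at least 1 higher and 2 lower, with a median of 0.30. Mycn, a Myc family factor of progenitors, was at 2.23 in PZ and −0.62 in FCC, and FZ was higher still at 3.11. Gadd45g, a stress and growth arrest protein, was at 1.74 in PZ and −0.83 in FCC. Ccnd1, the cyclin of entry into the cycle, differed by between 0.50 and 1.55 in 3 probe sets, and Myc by 1.14. Cdkn1a, Cdkn1c and Cdkn2c, inhibitors that hold cells out of the cycle, differed by 0.51, −0.74 and 0.10. Cdc25b, a phosphatase that activates the mitotic kinase, and Cdk4, the partner of Ccnd1, were low in PZ itself, at −2.40 and −1.75. They differed by −2.05 and −1.24. The 3′ probe set of the GAPDH control was low in PZ as well (−1.46), and its part in Cdc25b and Cdk4 was not tested.

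**Figure D4:**
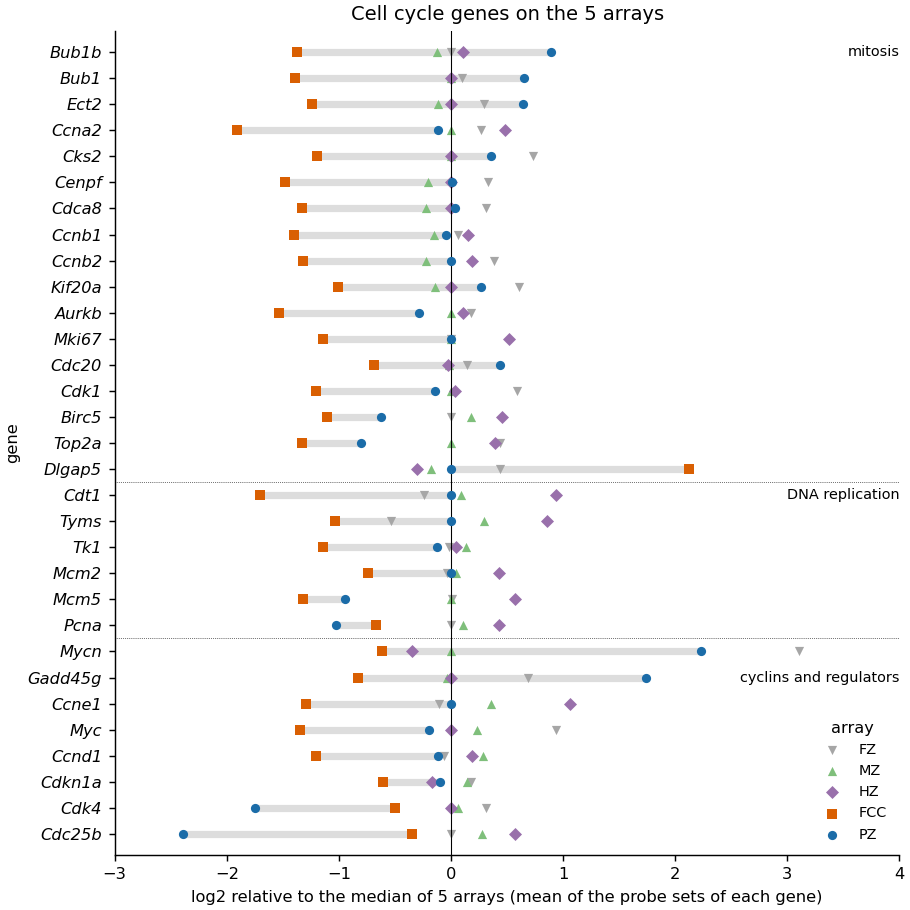
Log2 values on the 5 arrays, relative to their median (horizontal axis), for 31 genes of mitosis, DNA replication and cell cycle control, with a grey bar between the FCC square and the PZ circle. FCC is the lowest array for most mitotic genes, from −1.91 for Ccna2 to −0.69 for Cdc20. PZ is the highest array for Bub1b, Bub1, Ect2 and Cdc20, and it lies under the other 3 zones for genes that include Ccna2, Aurkb, Cdk1, Birc5 and Top2a.

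The promoters of 4 of these mitotic genes are shown because many genes of mitosis are known to share a pair of short elements, the CHR (TTTGAA) and the CCAAT box, which are bound by the DREAM and B-Myb complexes and by NF-Y. The sequences are the 200 bases before the start of each gene in RefSeq on build GRCr8, written 5′ to 3′ on the strand of the gene, with each CHR and CCAAT box on either strand in capitals. They cover Ect2 at chr2:111966627-111966826 (minus strand), Ccnb2 at chr8:79981659-79981858 (minus strand), Cdk1 at chr20:19265093-19265292 (plus strand) and Cdc20 at chr5:137255800-137255999 (minus strand).
Ect2: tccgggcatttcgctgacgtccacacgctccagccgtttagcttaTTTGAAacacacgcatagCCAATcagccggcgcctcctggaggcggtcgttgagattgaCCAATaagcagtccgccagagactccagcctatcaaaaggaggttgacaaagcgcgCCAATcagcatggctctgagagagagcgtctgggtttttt
Ccnb2: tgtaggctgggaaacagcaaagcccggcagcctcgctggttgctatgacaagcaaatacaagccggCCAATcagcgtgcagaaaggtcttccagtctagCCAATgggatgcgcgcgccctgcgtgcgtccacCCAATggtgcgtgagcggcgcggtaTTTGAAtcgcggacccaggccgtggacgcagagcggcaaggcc
Cdk1: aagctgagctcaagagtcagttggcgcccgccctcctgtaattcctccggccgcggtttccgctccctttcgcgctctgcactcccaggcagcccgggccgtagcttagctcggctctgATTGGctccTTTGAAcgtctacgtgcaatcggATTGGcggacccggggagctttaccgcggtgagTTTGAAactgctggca
Cdc20: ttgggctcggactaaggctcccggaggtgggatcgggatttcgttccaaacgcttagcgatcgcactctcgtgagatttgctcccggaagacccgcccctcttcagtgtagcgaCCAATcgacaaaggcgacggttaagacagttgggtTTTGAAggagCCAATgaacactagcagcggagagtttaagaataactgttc

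Each of the 4 holds at least 1 CHR and 2 CCAAT boxes, and the differences of the genes were 1.88 for Ect2, 1.32 for Ccnb2, 1.06 for Cdk1 and 1.13 for Cdc20. These 4 were picked by hand as examples, so their matches do not stand for the list. In Ccnb2, 3 CCAAT boxes start 134, 101 and 68 bases before the gene, followed by a CHR at 43, and in Cdc20 a CHR at 51 bases stands between CCAAT boxes at 86 and 41. In Cdk1 the CCAAT boxes at 81 and 49 lie on the opposite strand. Of 35 mitotic genes with 1 promoter in the table, 18 hold TTTGAA within 250 bases before the start on either strand, which is 51.4%, and 29 hold CCAAT, which is 82.9%. Among all 24206 genes with 1 promoter the shares were 16.1% and 34.4%. A match of letters is a description and not evidence of binding in these cells.

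Genes of position along the body differed between the tissues. Of 22 Hox genes measured, 10 were at least 1 lower in PZ and 0 higher, with a median of −0.58, and in all 10 it was FCC that lay at least 1 above the median. The differences were concentrated in the Hoxa and Hoxc clusters. Hoxc9 was at 5.77 in FCC and between −0.11 and 0.02 in the 4 zones, Hoxa5 at 5.05 in FCC and 0.00 in PZ, Hoxc5 at 4.79 and 0.18, and Hoxa10 at 4.75 and 0.19. Hoxc8, Hoxd8, Hoxa7 and Hoxd4 differed by −2.11, −2.51, −1.30 and −1.01, and Hoxc4 by −3.79 and 0.00 in its 2 probe sets. The 6 genes of the Hoxb cluster lay between −0.57 and 0.35. Hoxd9, Hoxd10 and Hoxd11, posterior genes of the limb, differed by 0.10, 0.12 and 0.23, and Hoxa11 by −0.25. Several FCC values therefore stood far above the jaw zones, and others with the same textbook role in limbs did not.

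**Figure D5:**
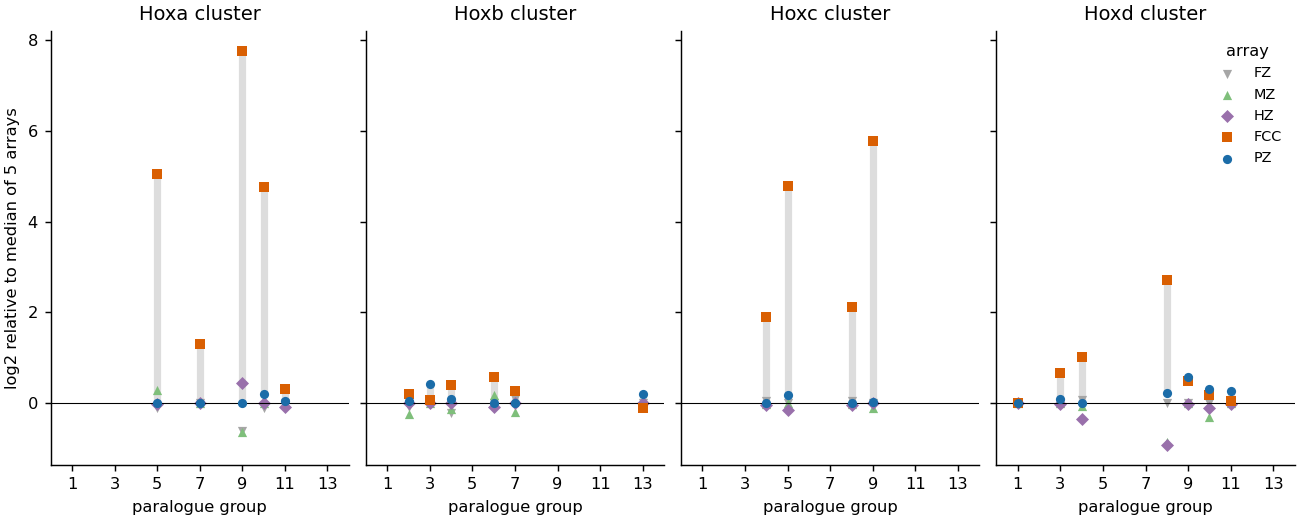
Log2 values of 22 Hox genes on the 5 arrays, relative to their median (vertical axis), by paralogue group (horizontal axis) in the 4 clusters, with a grey bar between the FCC square and the PZ circle. FCC reaches 7.77 for Hoxa9 and 5.77 for Hoxc9, whereas the 6 Hoxb genes reach at most 0.57 on any array.

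Factors of the limb did not shift as a list, but a few were high in FCC. Of 20 measured, 5 were at least 1 lower in PZ and 0 higher, with 12 above 0 and a median of 0.18. In these 5 FCC lay at least 1 above the median of the arrays. Tbx18, a T-box factor of limb and somite mesenchyme, was at 3.95 in FCC and 0.11 in PZ. Meis2 and Meis1, cofactors of Hox proteins in the proximal limb, were at 3.61 and 2.57 in FCC and 0.09 and −0.50 in PZ. Tbx4, the T-box factor of the hind limb, was at 2.71 in FCC, 0.00 in PZ, MZ and HZ and −0.11 in FZ, whereas Pitx1, another hind limb factor that is also made in the jaw, differed by 0.24. Osr2, of joint mesenchyme, differed by −1.84.

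Of 26 factors of the face, 5 were at least 1 higher in PZ and 0 lower, and the median of 0.15 was close to that of the limb list. Dlx1, a homeobox gene of the branchial arches, was at 0.00 in PZ, 0.97 in FZ, −0.12 in MZ and −2.88 in FCC. Pax9, of jaw and tooth mesenchyme, was at 0.73 in PZ and −1.42 in FCC. Eya1, a transcriptional cofactor of the branchial arches, was at 1.67 in PZ, 1.59 in FZ and −0.51 in FCC. The differences of Bcl11b, a zinc finger factor of facial mesenchyme, ran from 0.73 to 4.30 in 3 probe sets, and those of Prrx2 were 0.30 and 2.53 in 2. For Dlx1 the step lay between FCC and all jaw zones, and for Eya1 and Bcl11b the superficial zones stood above the deep ones too. Among the other facial genes the differences were smaller, with Msx1 at −0.26, Barx1 at −0.17, Alx1 at 0.12 and Dlx5 at 0.37.

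In the retinoic acid pathway 2 of 21 genes were at least 1 higher, 2 lower and the median was −0.13. Both higher genes were cellular binding proteins, Crabp1 and Crabp2, the latter at 1.78 in PZ, 3.24 in FZ and −0.07 in FCC. Rbp4, the retinol carrier of plasma, was at 3.07 in FCC, 1.81 in FZ and 0.00 in PZ, and Rarres2, the chemokine chemerin, at 2.71, 0.95 and 0.00. Aldh1a2, which makes retinoic acid, Cyp26b1, which degrades it, and Rarb, a receptor induced by it, differed by 0.13, −0.93 and −0.25.

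Wnt genes had members on both sides, with 5 of 51 at least 1 higher, 6 lower and a median of 0.09. Among ligands, Wnt5b was at 1.15 in PZ and −0.78 in FCC, Wnt9a, a ligand of joint formation, at 1.35 and 0.00, and Wnt4 differed by 1.64. Tcf7, a transcription factor of the pathway, was at 1.20 in PZ and −2.19 in FCC, the highest and the lowest of the 5 arrays. Nkd2, an intracellular antagonist, was also higher, by 1.57. The 6 lower genes were of several kinds. Wif1, which sequesters Wnt proteins, was at 1.53 in FCC and −1.41 in PZ, each the extreme of the 5 arrays. Sfrp5 differed by −1.08, Ccn6 and Ccn5, of the CCN matricellular family, by −4.01 and −1.06, and the receptors Lgr6, for R-spondins, and Fzd8, for Wnt proteins, by −4.25 and −1.64. Axin2, a target that reports pathway activity, differed by 0.28, and Lef1 by −1.17 and 0.40 in its 2 probe sets.

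Of 53 genes of BMP, GDF and TGF-beta signalling, 2 were at least 1 higher, 7 lower and the median was −0.05. Inhba, the activin subunit, differed by 1.17 and Eng, a coreceptor, by 1.47. Besides Gdf10, Bmp7, a ligand, differed by −1.67, and Chrdl1 and Chrdl2, chordin-like antagonists, by −1.34 and −1.74. Ltbp1, Ltbp3 and Ltbp4, which store latent TGF-beta in the matrix, were all lower in PZ, by differences of −1.80, −1.75 and −1.33, and Ltbp4 was at 1.33 in FCC, 1.65 in FZ and 0.00 in PZ. Bmp2, Bmp4 and Tgfb1 differed by −0.29, −0.40 and 0.39, and Id1, a target of BMP, by −0.03.

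In the hedgehog and PTHrP pathway 4 of 15 genes were at least 1 lower, 0 higher and the median was −0.63. Besides Ihh, the lower genes were Gli2, a transcription factor of the pathway, at 1.63 in FCC and −0.03 in PZ, Boc, a coreceptor, at 1.67 and 0.00, and Evc, a ciliary protein, at 1.20 and −0.02. Gli1, a target that reports pathway activity, differed by −0.79, and Pth1r, the receptor for PTHrP, by 0.22 and 1.16 in its 2 probe sets. The ligand and several transducers were thus higher in FCC.

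Of 46 genes of FGF, EGF, PDGF and VEGF signalling, 1 was at least 1 higher, 3 lower and the median was −0.08. Fgfrl1, a receptor without a kinase that is made in cartilage, was at 2.75 in FCC and −0.12 in PZ, and Fgf13, an intracellular member of the FGF family, was at 4.04 and 0.15. Fgfr3, the receptor that restrains chondrocyte division, differed by 0.43, Fgfr2 by −0.03 and Fgf18 by −0.21. The higher gene, Pdgfrb, had probe sets from −0.41 to 2.23. In the insulin-like growth factor system 4 of 21 were at least 1 lower and 0 higher, with a median of −0.155. Igfbp7 was at 1.41 in FCC and −0.71 in PZ, and the differences of Igfbp5, both of them binding proteins, ran from −2.83 to −0.12 in 5 probe sets. The 4 probe sets of Igf2, a fetal growth factor, ran from −3.69 to 0.30, and 1 of them set its mean.

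In Notch signalling 3 of 23 genes were at least 1 higher, 1 lower and the median was 0.27. The receptor Notch1 was at 0.00 in PZ and −1.44 in FCC, its ligand Jag1 at 0.16 and −1.02, and the target Hey2 at 0.00 and −1.11, whereas Hes1, another target, was at −0.42 and 0.89. Of 59 axon guidance genes, 6 were at least 1 higher, 3 lower and the median was 0.03. Ephb3, an ephrin receptor, was at 2.01 in PZ, 2.39 in FZ and 0.00 in FCC, and Sema3e, a semaphorin, was at 2.59 in FCC and 0.00 in PZ. Slit2, a ligand of Robo2, differed by between 0.02 and 1.66 in 3 probe sets. Of 18 imprinted genes, 2 were at least 1 lower, 0 higher and the median was −0.51. Apart from Meg3, the lower gene was Plagl1 (−1.03), and H19, Dlk1 and Cdkn1c differed by −0.79, −0.93 and −0.74.

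Of 53 channels, pumps and receptors known in chondrocytes, 6 were at least 1 higher, 6 lower and the median was 0.06. Casr, the calcium-sensing receptor, was at 3.58 in FCC, 0.22 in FZ, 0.00 in PZ and −2.33 in MZ. Trpv4, a channel that opens on mechanical and osmotic stress, was at 1.67 in FCC, −0.83 in FZ and 0.00 in PZ. Npr2, the receptor for C-type natriuretic peptide that drives bone growth, was at 0.81 in FCC and −0.92 in PZ. On the other side Ano1, a chloride channel, was at 0.57 in PZ and −1.33 in FCC, and Aqp1, a water channel, differed by 0.40 and 2.40 in its 2 probe sets. In prostaglandin synthesis 1 of 15 genes was higher, 2 lower and the median was −0.27, with Ptgis, the prostacyclin synthase, at 0.79 in PZ and −0.51 in FCC and Ptgs2, the inducible cyclooxygenase, differing by 0.11.

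Genes of glycolysis and of the response to low oxygen lay mostly below 0. Of 21 glycolytic genes, 18 lay below 0, 9 were at least 1 lower, 0 higher and the median was −0.80. Ldha, the lactate dehydrogenase that regenerates NAD without oxygen, was at 0.78 in FCC and −1.33 in PZ, with FZ at 1.10 and MZ and HZ at 0.00 and −0.11. Aldoa, an aldolase, was at 0.59 in FCC and −1.50 in PZ. Pfkl, a phosphofructokinase, was at 0.72 and −1.06. In these 3 genes PZ was the lowest array, as it was for the 3′ probe set of the GAPDH control (−1.46 in PZ and 0.44 in FCC), and the 10 genes often used as references had a PZ median of −0.79. The part of either in the glycolytic genes was not tested. Slc2a1, the glucose transporter, instead lay at 0.00 in PZ and was high in FCC, at 1.68. Gpi, Hk1 and Eno1 differed by −1.50, −1.36 and −1.08, while Hk2 differed by 0.27 and Pgk1 by −0.38. Of 17 genes of the hypoxia response, 14 lay below 0, 7 were at least 1 lower, 0 higher and the median was −0.79. Egln3, an oxygen-sensing hydroxylase induced by HIF, was at 2.78 in FCC, 2.11 in FZ and −0.49 in PZ. Bnip3, which clears mitochondria, was at 1.66 in FCC, 0.00 in PZ and −1.76 in HZ. Adm, the peptide adrenomedullin, and Ankrd37 differed by −1.65 and −1.16, Vegfa, the vascular growth factor, by −2.06 and 0.74 in its 2 probe sets, and Car9, a carbonic anhydrase, by 0.04.

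The promoters of 3 of these genes are shown for the letters of the site that HIF is known to bind, ACGTG or GCGTG, in capitals on either strand, in the 200 bases before the start on build GRCr8. The genes are Ldha at chr1:106507892-106508091 (plus strand), Bnip3 at chr1:203154963-203155162 (minus strand) and P4ha1 at chr20:27844846-27845045 (plus strand).
Ldha: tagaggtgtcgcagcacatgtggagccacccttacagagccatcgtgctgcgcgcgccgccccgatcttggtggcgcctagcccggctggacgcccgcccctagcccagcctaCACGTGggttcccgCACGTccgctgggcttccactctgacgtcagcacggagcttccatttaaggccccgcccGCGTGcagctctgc
Bnip3: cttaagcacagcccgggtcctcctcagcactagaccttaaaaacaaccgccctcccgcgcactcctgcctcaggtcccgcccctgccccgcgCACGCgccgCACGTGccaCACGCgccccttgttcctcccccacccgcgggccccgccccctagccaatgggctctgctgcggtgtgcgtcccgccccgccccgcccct
P4ha1: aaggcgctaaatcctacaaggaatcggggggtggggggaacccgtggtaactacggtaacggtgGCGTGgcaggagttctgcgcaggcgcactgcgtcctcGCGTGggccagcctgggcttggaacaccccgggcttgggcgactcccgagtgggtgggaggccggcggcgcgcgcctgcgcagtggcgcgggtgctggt

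Ldha holds 4 matches and Bnip3 also 4, in each of which a pair overlaps in CACGTG, where both strands match, and P4ha1 holds 2. Within 250 bases before the start, 12 of 16 glycolytic genes with 1 promoter in the table hold either form, 75%, as do 9 of 14 genes of the hypoxia list, 64.3%, against 38.4% of the 24206 genes. Several of these genes do not share a pattern across the arrays, since Ldha was low in PZ and Bnip3 was high in FCC. Here too a match of letters is a description and not evidence of binding in these cells.

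Part of the ribosomal protein, proteasome and oxidative phosphorylation genes were low in PZ itself. Of 42 ribosomal protein genes, 11 were at least 1 lower, 0 higher and the median was −0.49. In all 11 PZ lay at least 1 below the median of the arrays and in 0 did FCC lie at least 1 above it. Rps15a was at −2.04 in PZ and between 0.00 and 0.04 in the other 4 arrays, and Rps9 at −1.53 in PZ and between −0.02 and 0.15 elsewhere. Rps24 differed by −2.42 in 1 probe set and 0.00 in the other. The proteasome had 6 of 38 lower, all 6 with PZ at least 1 below the median, 1 higher and a median of −0.25, with Psmb7 at −2.08 in PZ and −0.13 in FCC. In oxidative phosphorylation 9 of 71 were lower, 8 of them with PZ at least 1 below the median, 1 was higher and the median was −0.27. Cox4i1, the common form of a cytochrome oxidase subunit, was at −2.42 in PZ and −0.34 in FCC, and Cox4i2, its oxygen-sensitive alternative, was at −0.98 in PZ, 1.59 in FCC and 2.05 in FZ. Of 35 chaperones and folding factors, 3 were lower, a share near that of all genes, 0 were higher and the median was −0.08, with Hsp90ab1 at −3.20 and −0.82 by its 2 probe sets and Hspa5, the chaperone of the endoplasmic reticulum, at −0.12. Of 10 genes often used as references 2 were lower, with a median of −0.51 and a PZ median of −0.79, against 0.00 in FCC. The 3′ probe set of the GAPDH control was likewise low in PZ, at −1.46, against 0.44 in FCC, and its part in these lists was not tested.

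Cholesterol synthesis was higher in PZ for part of its genes. Of 19 measured, 4 were at least 1 higher, 0 lower and the median was 0.47, and 17 lay above 0. In 1 of the 4 PZ lay at least 1 above the median of the arrays. Over the list the median value was 0.19 in PZ and −0.16 in FCC, and the highest was that of FZ, at 0.85. Dhcr7, which makes cholesterol in the last step, was at 1.08 in PZ, 1.402 in FZ and −0.35 in FCC. Hsd17b7 differed by 1.06 and 1.60 in its 2 probe sets and Cyp51 by 0.12 and 2.52, while Mvd, an early enzyme, differed by 1.24. Sqle, Msmo1 and Acat2, of the same pathway, differed by 0.03, 0.01 and −0.13, and these were high in FZ alone, at 1.37, 1.20 and 1.43. Among 23 genes of cholesterol uptake and SREBP regulation 1 was higher, 1 lower and the median was 0.25. Fads1, a fatty acid desaturase, differed by 1.05 and Lpin1, a phosphatidate phosphatase, by −2.01.

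Of 23 immediate early genes, 4 were at least 1 higher, 5 lower and the median was 0.06. Atf3 was at 0.79 in PZ and −1.57 in FCC, and Klf4 and Fosl1 differed by 1.26 and 1.12. Against them Fosb was at 3.12 in FCC and 0.96 in PZ, Nr4a1 at 2.59 and 0.08, Egr1 at 1.56 and −0.84, and Zfp36, which destabilizes cytokine messages, at 1.59 and −1.38. Fos and Jun, the components of AP-1, differed by −0.47 and 0.72.

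Markers of other cell types that sections can hold were read in both arrays. Of 9 neutrophil genes, 6 were at least 1 lower in PZ, 0 higher and the median was −1.78. S100a8 and S100a9, proteins of neutrophil cytoplasm, were at 0.00 in FCC and −1.75 and −1.78 in PZ, and Camp and Lcn2, proteins of their granules, at 0.00 in FCC and −2.02 and −2.22 in PZ. Np4 and Defa5, defensins, were at 0.52 and 0.66 in FCC and −2.06 and −1.99 in PZ. Of 17 erythroid genes 4 were lower and 0 higher, with a median of −0.35. Alas2, of haem synthesis, was at −2.52 in PZ, −0.97 in FZ and 0.00 in FCC, and Hbb, the beta globin, at −1.70, −0.75 and 0.00. Megakaryocyte and platelet genes had 2 of 14 lower, 0 higher and a median of −0.11. In all 12 lower genes of these 3 lists PZ lay at least 1 below the median of the arrays, and in 0 of them did FCC lie at least 1 above it.

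Macrophage genes had 1 of 17 higher, 0 lower and a median of 0.32, lymphocyte genes 1 of 15 higher, 0 lower and 0.28, and pan-leukocyte genes 2 of 17 higher, 3 lower and 0.19. Both arrays lay under the median in the pan-leukocyte list, with a list median of −0.80 in FCC and −0.81 in PZ, against 0.62 in MZ and 1.11 in HZ. Cd68, of macrophages, was at −1.51 in FCC and −0.53 in PZ, and Ptprc, the common leukocyte antigen, at −0.70 and −0.39. Osteoclast genes had 1 of 10 higher and 1 lower (median 0.04), and osteoblast and osteocyte genes 1 of 13 higher and 3 lower (median 0.12). Tnfrsf11b, osteoprotegerin, the decoy that holds back osteoclasts, was the largest of the latter, at 2.82 in FCC and −1.05 in PZ. Of 20 endothelial genes 1 was higher and 2 lower (median 0.08), with Pecam1 at 0.05, and of 14 smooth muscle and pericyte genes 2 were higher and 0 lower (median 0.01), with Tagln at 1.02 in PZ, 1.84 in FZ and −0.69 in FCC.

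Skeletal muscle genes gave 2 of 25 higher, 3 lower and a median of 0.12. Tnni2, a troponin of fast muscle that cartilage is also known to make, was at 4.89 in FCC and 1.85 in MZ, while Myh2, a myosin of muscle fibres, was at 2.71 in FZ, 0.00 in PZ and −1.06 in FCC. Acta1 and Ckm, defining genes of muscle, differed by 0.55 and 0.14. Of 11 adipocyte genes 0 were at least 1 apart (median −0.14), and of 17 nerve and Schwann cell genes 2 were lower and 0 higher (median −0.05). One of these was S100b, which chondrocytes also make, at 2.47 in FCC and 0.00 in PZ, and Sox10, the defining factor of Schwann cells, differed by −0.06. Of 11 genes of synovium and the articular surface, 6 were at least 1 lower, 0 higher and the median was −1.08, with Creb5, Erg, Sema3e and Has2 among them and Clu, an extracellular chaperone, at −4.33 and −1.77 by its 2 probe sets. Prg4, the lubricant of that surface, is not analysed here. Skeletal stem and progenitor genes had 3 of 22 higher, Scx, Tnc and Eng, and 2 lower, Foxp2 (−2.61) and Nt5e (−2.73), with a median of 0.18, and Tnc, a matrix protein of growing connective tissue, was at 0.22 in PZ, 1.22 in FZ and −1.28 in FCC.

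Among further genes named for this tissue, Rgs7bp, which binds regulators of G protein signalling, was at 2.58 in PZ, 1.19 in FZ and −0.05 in FCC. Cmtm5 and Capn6, a calpain relative that stabilizes microtubules, were at 3.10 and 2.64 in FCC and 0.00 in PZ, and Fibin, a secreted protein, differed by −1.90 and −1.24 in its 2 probe sets. Satb1, a chromatin organizer, differed by 1.75 and 2.20. Aplp2, Kcnq5 and Sorl1 had probe sets at least 4 apart, from −3.13 to 1.69, from −4.23 to 0.11 and from −3.76 to 0.26, so that no single difference stands for these genes.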

How the data were processed

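RNA of laser-captured cells was hybridized to Affymetrix rat genome arrays, with 1 array for each of 5 groups. To obtain the deposited log2 values, the authors ran RMA in GeneSpring with quantile normalization and then set the 5-array median of every probe set to 0, and the paper also describes a MAS5 background step. The submitters' processing notes give MAS5 and RMA, with no version. The values hold no level, no detection call and no depth, so the number of arrays limits the precision. Differences of PZ minus FCC were computed with pandas 2.3.3 and numpy 2.4.6 under Python 3.11.15, and plots were made with matplotlib 3.10.9. Of 31042 probe sets, 20826 carry 1 gene symbol in the platform annotation, 436 carry several and 9780 are not listed. Of the 20826, 20760 were matched to the RefSeq gene table and 66 kept the symbol of the annotation. Named were the 25 genes furthest on either side, among probe sets with 1 symbol. Also named were, for each list, its defining genes and up to 4 of the largest differences on either side. Genes whose probe sets lay at least 4 apart or at least 2 on both sides were added. The members and lists were chosen with earlier results of these data known. Alternatives were centring, a shift by hybridization controls, other thresholds, and other choices of probe set. Promoters came from RefSeq (GRCr8), leaving out genes with several entries.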

Additional observations from a re-analysis of the deposited data

How the results depend on the processing

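No paired analysis was possible because each group has 1 array. The counts of 251 probe sets higher and 502 lower depended on the threshold. At 1 they were 1759 and 2150, at 1.4 they were 790 and 1135, and at 3 they were 35 and 172, while with 1 value per gene 85 genes were higher and 251 lower. The other settings for these counts stayed within 1.5 times. The medians of the 51 lists moved by less than the spread between probe sets under the 255 alternatives run. Of 510 recounts of list members, 27 lay over 1.5 times off, 21 of them with the probe set of largest SD in place of the mean, by 5 genes at most. With that probe set the higher limb factors went from 0 to 2, the lower BMP and TGF-beta genes from 7 to 11, and axon guidance from 6 higher and 3 lower to 11 and 7. Of 174 named genes with at least 2 probe sets, 54 had probe sets on both sides of 0, 10 of them with a mean at least 1 from 0 (Agtr2, Cdh22, Drd4, Ghr, Hook3, Kcnq5, Pcdh9, Pdgfrb, Sorl1 and Tmem229a). Where the mean was at least 2 from 0, the sign turned for Agtr2 (0.21), Cdh22 (0.60) and Drd4 (−0.002). With 1 array a group, a value that depends on the array alone cannot be told apart from one of the tissue, and signal over background is unknown.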
